A study of Homo sapiens with 9 samples.

Results

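The genes described here are 9 genes of the MHC class I presentation pathway, HLA-B, HLA-C, HLA-E, HLA-F, B2M, TAP1, TAP2, TAPBP and NLRC5. They were chosen by name as the class I heavy chains, their light chain, the peptide transporter with its adaptor, and the pathway's own transactivator. All 9 were found among the 24462 gene symbols counted in every library, and all 9 passed the filter on low counts that left 13676 genes to test.

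Class I molecules show short peptides from the cell's own proteins on its surface, where CD8 T cells read them. Peptides cut by the proteasome are pumped into the endoplasmic reticulum by the TAP1 and TAP2 transporter, tapasin (TAPBP) holds the empty heavy chain beside it, and a loaded heavy chain leaves for the surface together with beta-2-microglobulin (B2M). In tumour cells of astrocytic origin, as in most cells, transcription of these genes is raised by interferon through IRF1 and NLRC5 and by NF-kappa B.

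The cells were U-373MG, an established human line labelled glioblastoma and astrocytoma. Cells were exposed for 48 h to 200 nM CBRV1-10493 (3 libraries) or to 200 nM NnK-1 (3 libraries). A further 3 libraries are labelled as controls, and the same controls serve both peptides. Both peptides are synthetic, come from jellyfish and resemble ShK, a sea anemone toxin that blocks the potassium channel Kv1.3. Transcripts were counted near their 3′ ends by QuantSeq. All groups are the same line with no genetic change named in the labels, and no treatment, vehicle or time is labelled for the controls. The treated samples are called biological replicates, but separate cultures are not named. The p-values therefore reflect how far these libraries vary, and that variation may be technical.

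Libraries held 11203094 to 13491075 counts and 15305 to 15968 genes with a read. CBRV1-10493 replicate 1 and NnK-1 replicate 2 lay apart from the rest in a principal component analysis (components with 14.7% and 19.7% of the variance). Of the markers of its labelled type, VIM, NES, SOX2, SOX9, CD44, S100B and GFAP were detected in every library, GFAP at 19.7 to 28.98 CPM (counts per 1000000 counts of the library), whereas ALDH1L1 had no read and AQP4 and CHI3L1 almost none. Of 16 leukocyte markers 7 had no read, and the list summed to 4.88 to 7.70 CPM with CBRV1-10493, 3.55 to 6.14 CPM with NnK-1 and 5.85 to 8.90 CPM in controls. Of 15 class II genes 3 had enough reads to be tested (CTSS, IFI30 and HLA-DMA).

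Class I promoters are known to hold elements for interferon regulatory factors (IRF) and NF-kappa B, so stretches that match short forms of these elements are shown before the values. RefSeq starts on GRCh38.p14 were given for 7 of the 9 genes. In each line below capitals mark the letters of an IRF core (AANNGAAA, or TTTCNNTT when read on the other strand) or of a kappa B form (GGGANNNNCC, or GGNNNNTCCC), read 5′ to 3′ on the strand of the gene. Neighbouring copies may overlap. The stretches are chr15:44711365-44711411 on the plus strand for B2M, chr6:31357317-31357366 on the minus strand for HLA-B, chr6:31272226-31272290 on the minus strand for HLA-C, chr6:29723268-29723295 on the plus strand for HLA-F, chr6:32853815-32853848 on the minus strand for TAP1, chr6:32838778-32838811 on the minus strand for TAP2 and chr6:33314079-33314106 on the minus strand for TAPBP. ISG15, a ubiquitin-like protein strongly induced by interferon and picked after its values were seen, is set beside them (chr1:1013376-1013409, plus strand).
B2M: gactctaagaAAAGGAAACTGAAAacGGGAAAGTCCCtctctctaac
HLA-B: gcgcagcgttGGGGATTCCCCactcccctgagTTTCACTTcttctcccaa
HLA-C: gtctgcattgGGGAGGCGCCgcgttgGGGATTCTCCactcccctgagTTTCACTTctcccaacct
HLA-F: ctccccagagTTTCTCTTtctctcccaa
TAP1: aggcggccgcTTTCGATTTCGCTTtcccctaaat
TAP2: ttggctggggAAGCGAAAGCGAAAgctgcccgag
TAPBP: ctttggaggaAAGTGAAAGTGAAAggag
ISG15: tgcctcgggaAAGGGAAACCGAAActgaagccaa

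An IRF core lay within 250 bases before a start in 7 of these 7 genes, in 31 of 37 listed interferon-stimulated genes with a promoter (83.8%) and in 23.9% of 27305 genes in the table. The heavy chains HLA-B, HLA-C and HLA-F held a lone copy in reverse orientation, while B2M, TAP1, TAP2, TAPBP and ISG15 held a pair of overlapping copies. A kappa B form was found before 5 of the 7 genes, 11 of the 37 interferon-stimulated genes (29.7%) and 25.8% of all genes. In B2M, HLA-B and HLA-C it stood next to the IRF core. A match is a description of the letters, and binding was not measured. Searched on both strands, CCAAT (read in reverse as ATTGG), the letters bound by NFY, occurred in 5 of the 8 promoter windows of the 7 genes and in 32.01% of all 35116 windows. TGACG (in reverse CGTCA), the core letters bound by CREB and ATF1, occurred in 4 of the 8 windows and in 21.2% of all. NLRC5 is known to work on class I promoters together with RFX, CREB and NFY proteins. TAP1 has a pair of RefSeq starts, and these letters stand before the second of them. That start lies 488 bases from the start of PSMB9, an interferon-induced proteasome subunit on the opposite strand. The sequences are those of the reference genome, and the line's own HLA alleles may differ from it.

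The question put to these genes was whether transcripts of class I presentation differ after either peptide. By edgeR's quasi-likelihood test none of the 9 genes passed. With CBRV1-10493 against control, 0 of 9 passed after Benjamini-Hochberg adjustment over all tested genes, beside a background of 0% of 13676, and 0 of 9 reached an unadjusted p under 0.05, where 2.89% of all genes did. With NnK-1 against control it was 0 of 9 beside a background of 0%, and 0 of 9 unadjusted beside 7.32%. With CBRV1-10493 against NnK-1 it was again 0 of 9 beside 0%, and 0 of 9 unadjusted beside 4.31%. The unadjusted counts depended on single libraries. Without NnK-1 replicate 1, B2M and TAPBP were under 0.05 both for NnK-1 against control (2 of 9, beside 1635 of 13989 genes) and for CBRV1-10493 against NnK-1 (2 of 9, beside 1262). Without CBRV1-10493 replicate 1, HLA-C and TAP2 were under 0.05 for CBRV1-10493 against NnK-1 (2 of 9, beside 1005 of 14001 genes). Limma-voom passed 0 of 9 in each comparison, and so did DESeq2, which gave no adjusted p for HLA-F and NLRC5 with NnK-1. The median log2 fold change of the 9 genes was 0.022 with CBRV1-10493 and 0.077 with NnK-1 against control, where the medians over all tested genes were 0.0027 and 0.0033. A p that misses the threshold does not show that levels are equal, so each fold change is given with its 95% interval.

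**Figure D1:**
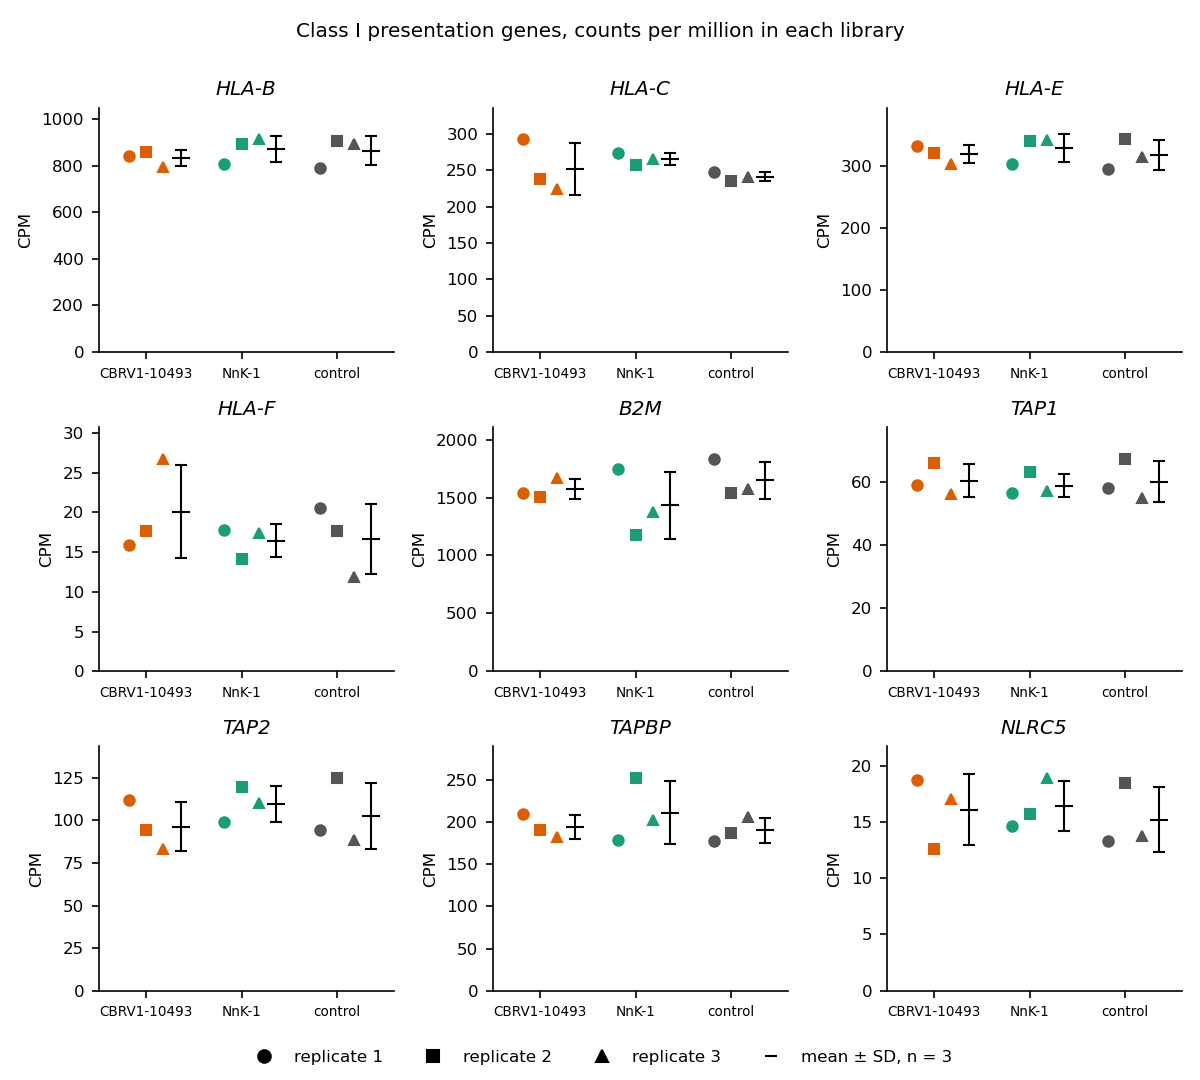
CPM (from 0 on each axis) of the 9 genes in each library, with CBRV1-10493, NnK-1 and control from left to right. Symbols are replicates and bars the mean ± SD of 3 libraries. HLA-C is the gene for which all NnK-1 libraries (257 to 273 CPM) lie above all control libraries (235 to 248 CPM).

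The heavy chains carry the groove that holds the peptide. Their CPM are scaled to each library's total count. Tags near the 3′ end count transcripts without a length term, and since capture can differ between genes, levels are compared between libraries and not between genes. Sums, shares and ratios of genes given below are likewise for comparison between libraries, and their size is not a measure of relative abundance. HLA-B, a classical heavy chain that presents peptides to CD8 T cells, had 842, 858 and 793 CPM with CBRV1-10493, 806, 893 and 912 CPM with NnK-1, and 791, 906 and 893 CPM in controls. The lowest library was control replicate 1 and the highest NnK-1 replicate 3, so the groups overlapped fully. Its log2 fold change was -0.04 with CBRV1-10493 (95% interval -0.22 to 0.14) and 0.04 with NnK-1 (-0.14 to 0.22) against control.

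HLA-C, the classical heavy chain that is also the main ligand of killer-cell immunoglobulin-like receptors, had 292, 238 and 224 CPM with CBRV1-10493. It had 273, 257 and 265 CPM with NnK-1 and 248, 235 and 241 CPM in controls. Every NnK-1 library lay above every control library, whereas the CBRV1-10493 libraries spanned both, from the lowest of the 9 in replicate 3 to the highest in replicate 1. The mean was 251 ± 35.99 CPM with CBRV1-10493, 265 ± 8.16 CPM with NnK-1 and 241 ± 6.52 CPM in controls (SD, n = 3 each). The fold change with NnK-1 was 0.16 on the log2 scale (-0.05 to 0.37) with an adjusted p of 0.746 by edgeR's quasi-likelihood test. With CBRV1-10493 it was 0.08 (-0.14 to 0.29), and without CBRV1-10493 replicate 1 it was -0.05. HLA-C was 1 of 9 genes whose NnK-1 and control libraries did not overlap, beside 13.0% of all tested genes. For CBRV1-10493 that held for 0 of 9, beside 8.88% of all genes against control and, likewise, 8.88% against NnK-1.

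HLA-E is the non-classical heavy chain that shows leader peptides of other class I molecules to the natural killer cell receptor NKG2A. It had 333, 322 and 304 CPM with CBRV1-10493, 303, 341 and 343 CPM with NnK-1, and 295, 343 and 315 CPM in controls. Both its lowest and its highest library were controls, the highest nearly level with NnK-1 replicate 3. Its log2 fold changes were 0.02 with CBRV1-10493 (-0.17 to 0.22) and 0.08 with NnK-1 (-0.12 to 0.27).

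HLA-F, a non-classical heavy chain found partly as an open form without peptide, was the most variable of the 9. It had 15.9, 17.7 and 26.7 CPM with CBRV1-10493, 17.8, 14.1 and 17.4 CPM with NnK-1, and 20.6, 17.6 and 11.9 CPM in controls. CBRV1-10493 replicate 3 was the highest and control replicate 3 the lowest, with the other libraries between 14.1 and 20.6 CPM. The log2 fold change was 0.29 with CBRV1-10493 (-0.18 to 0.75) and 0.01 with NnK-1 (-0.46 to 0.48), and the value for CBRV1-10493 was 0.029 without its replicate 3. The end of HLA-F is overlapped on the opposite strand by HLA-F-AS1 and RPL23AP1 (GENCODE v29). Here and below, overlap means that annotated gene extents, introns included, reach into the last 500 bases. Whether exons overlap there was not checked. No source used here states whether counting used strand, so reads of these genes cannot be told apart.

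B2M encodes the light chain that every class I heavy chain needs at the surface. It had 1539, 1508 and 1670 CPM with CBRV1-10493, 1749, 1173 and 1378 CPM with NnK-1, and 1834, 1539 and 1574 CPM in controls. NnK-1 replicates 2 and 3 were the lowest of the 9 libraries, yet NnK-1 replicate 1 was the second highest, so the groups overlapped. The mean was 1572 ± 86.2 CPM with CBRV1-10493, 1433 ± 292 CPM with NnK-1 and 1649 ± 161 CPM in controls (SD, n = 3 each). The log2 fold change was -0.18 with NnK-1 (-0.40 to 0.04) with an adjusted p of 0.729 by edgeR's quasi-likelihood test, the smallest among the 27 tests of the 9 genes, and -0.05 with CBRV1-10493 (-0.28 to 0.17). Single NnK-1 libraries set its size: without replicate 1 it was -0.33 (adjusted p 0.161) and without replicate 2 it was -0.07 (adjusted p 0.967), and without control replicate 1 it was -0.10 (adjusted p 0.954). NnK-1 replicate 2, which lay apart in the principal component analysis, was also the lowest for VIM, the intermediate filament vimentin, at 3670 CPM against 5108 to 6295 CPM in controls. The part of that library's composition in the B2M value was not tested.

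Over the 9 libraries the summed heavy chains spanned a narrower range than their light chain. HLA-B, HLA-C, HLA-E and HLA-F together had 1482, 1436 and 1348 CPM with CBRV1-10493, 1400, 1504 and 1538 CPM with NnK-1, and 1355, 1502 and 1461 CPM in controls. Divided by B2M, the sum was 0.963, 0.952 and 0.807 with CBRV1-10493, 0.800, 1.28 and 1.12 with NnK-1, and 0.739, 0.976 and 0.928 in controls. The ratio was highest in NnK-1 replicates 2 and 3 and lowest in control replicate 1, with NnK-1 replicate 1 in the range of the controls. HLA-B made up 58.5% ± 1.52 of the heavy chain counts with CBRV1-10493, 58.7% ± 1.02 with NnK-1 and 59.9% ± 1.40 in controls (SD, n = 3 each). These shares differed between groups by less than the largest of the SDs.

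**Figure D2:**
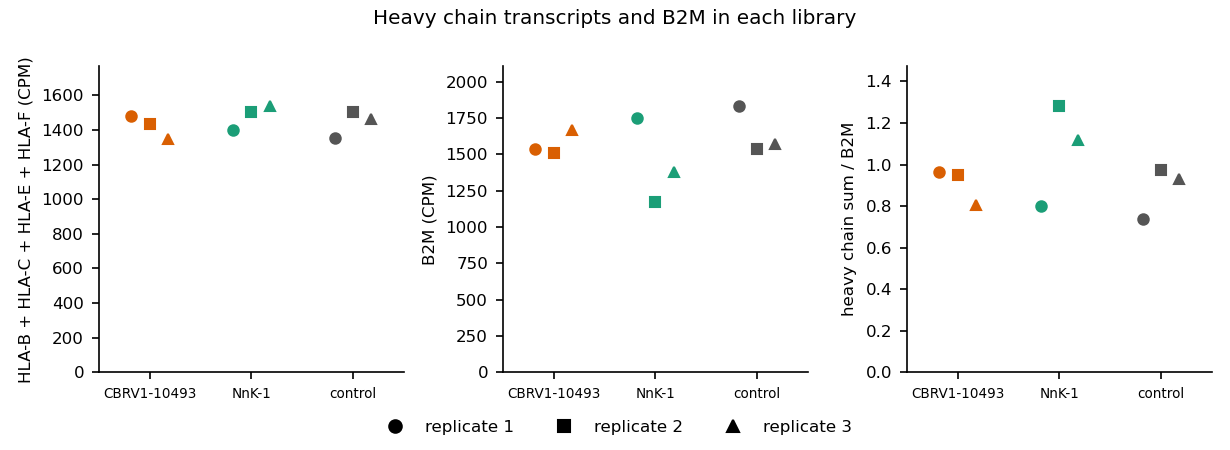
Summed CPM of HLA-B, HLA-C, HLA-E and HLA-F (left), CPM of B2M (middle) and their ratio (right) in each library, with CBRV1-10493, NnK-1 and control from left to right and symbols for the replicates. The ratio reaches 1.28 and 1.12 in NnK-1 replicates 2 and 3, while NnK-1 replicate 1, at 0.800, lies within the range of the controls.

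For the transporter genes TAP1 and TAP2 the libraries of the 3 groups overlapped. TAP1, a subunit of the pump, had 58.9, 66.0 and 56.0 CPM with CBRV1-10493, 56.3, 62.9 and 57.0 CPM with NnK-1, and 57.9, 67.2 and 54.9 CPM in controls. Replicate 2 was the highest library of each group. Its fitted log2 fold change was 0.02 with CBRV1-10493 (-0.23 to 0.28) and -0.0033 with NnK-1 (-0.26 to 0.25). By gene extents the 3′ end of TAP1 is overlapped on the opposite strand by PSMB9 and PSMB8-AS1, with the same limit on strand as for HLA-F. The PSMB9 start named above lies 488 bases before a TAP1 start, so a transcript begun there runs away from TAP1.

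TAP2, the other subunit, had 112, 94.1 and 83.0 CPM with CBRV1-10493, 98.9, 119.8 and 110.3 CPM with NnK-1, and 94.6, 124.8 and 88.5 CPM in controls. Control replicate 2 was the highest of the 9 libraries and CBRV1-10493 replicate 3 the lowest, and all groups overlapped. Against control its log2 fold change was -0.07 with CBRV1-10493 (-0.36 to 0.22) and 0.13 with NnK-1 (-0.16 to 0.41). Its ratio to TAP1 was 1.90, 1.43 and 1.48 with CBRV1-10493, 1.76, 1.90 and 1.94 with NnK-1, and 1.63, 1.86 and 1.61 in controls, again with overlap. A further gene model on the same strand, AL669918.1, overlaps the end of TAP2.

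TAPBP, the chaperone tapasin that joins heavy chain and transporter, had 210.1, 190.1 and 183 CPM with CBRV1-10493, 179, 252 and 202 CPM with NnK-1, and 178, 187 and 207 CPM in controls. NnK-1 replicate 2 stood above the other 8 libraries, which lay between 178 and 210.1 CPM. On the log2 scale the fold change was 0.18 with NnK-1 (-0.07 to 0.43) and 0.01 without NnK-1 replicate 2, 0.29 without NnK-1 replicate 1 (adjusted p 0.318), and 0.04 with CBRV1-10493 (-0.21 to 0.30).

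NLRC5, the transactivator that switches on the class I genes, had 154 to 233 counts per library, the lowest of the 9 genes together with HLA-F (158 to 324). It had 18.7, 12.6 and 17.0 CPM with CBRV1-10493, 14.7, 15.7 and 18.9 CPM with NnK-1, and 13.3, 18.5 and 13.8 CPM in controls. No group stood apart. The log2 fold change was 0.10 with CBRV1-10493 (-0.33 to 0.53) and 0.14 with NnK-1 (-0.29 to 0.57).

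Between the peptides, CBRV1-10493 against NnK-1, 6 of the 9 fold changes were below 0 and none passed, with adjusted p from 0.994 up by edgeR's quasi-likelihood test. The lowest value was that of TAP2, at 96.4 ± 14.6 CPM with CBRV1-10493 and 109.7 ± 10.5 CPM with NnK-1 (SD, n = 3 each), a log2 fold change of -0.20 (-0.49 to 0.09). HLA-F had 0.28 (-0.19 to 0.74), B2M 0.13 (-0.10 to 0.35) and TAPBP -0.13 (-0.39 to 0.12). The intervals were narrower for HLA-B at -0.08 (-0.26 to 0.10), HLA-C at -0.09 (-0.30 to 0.12) and HLA-E at -0.06 (-0.25 to 0.14). For each of the 9 genes, group means that are neighbours in order differed by less than the larger of their SDs. For HLA-C the CBRV1-10493 mean lay between the other groups. Its NnK-1 and control means (265 ± 8.16 and 241 ± 6.52 CPM) differed by more than either SD.

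**Figure D3:**
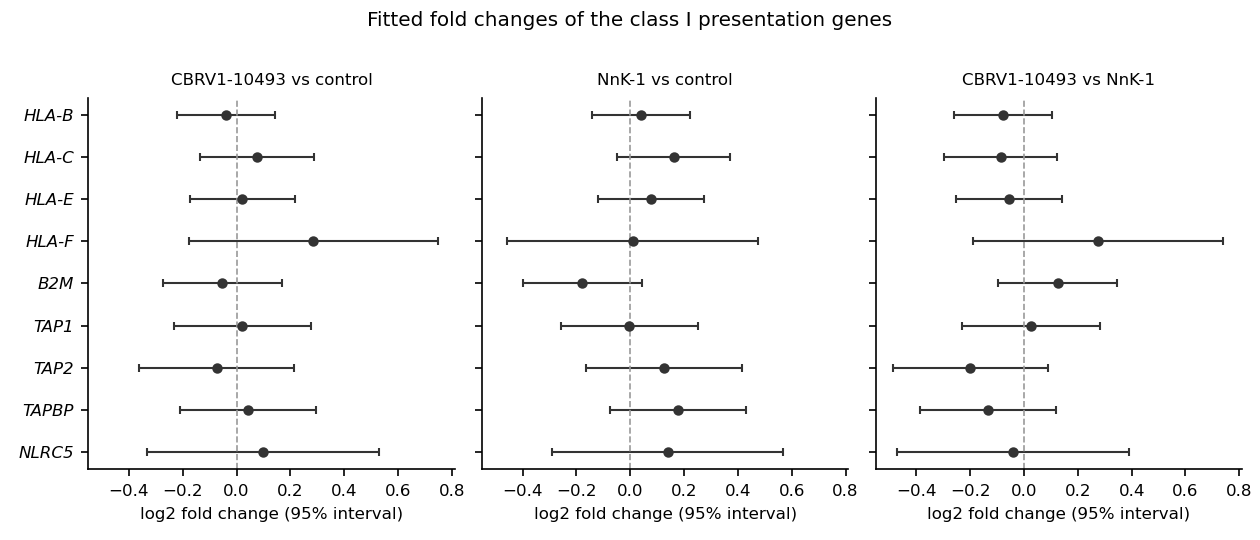
Fitted log2 fold changes (points) with 95% intervals (bars) from edgeR for CBRV1-10493 against control, NnK-1 against control and CBRV1-10493 against NnK-1, 3 libraries a group. All 27 intervals include 0, and they are widest for HLA-F and NLRC5.

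Over the 9 libraries together the genes differed in how steady they were. The coefficient of variation was 5.74% for HLA-B and 5.78% for HLA-E, below the median of 7.44% and 7.81% over genes within a factor of 2 of their level. It was 8.47% for HLA-C beside a median of 7.94%, and 7.63% for TAP1 beside 11.01%. B2M varied more than most genes of its level (12.7% beside 7.39%), as did TAP2 (14.0% beside 9.52%), TAPBP (11.7% beside 8.38%) and HLA-F (23.6% beside 16.3%). NLRC5 had 15.4% beside 17.1%. Counting error alone would give 0.723% for B2M and 7.16% for NLRC5, so the spread of B2M was far above its counting error.

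Control replicate 2 calls for a comparison of its own, because interferon-stimulated genes were high there. MX1, an antiviral GTPase, had 48.1 CPM in that library against 6.66 and 8.67 CPM in control replicates 1 and 3, and ISG15 80.1 CPM against 19.4 and 24.5 CPM. Among 42 tested interferon-stimulated genes, control replicate 2 was the highest of the 9 libraries for 26, beside 11.3% of all tested genes. It was the highest for 3 of the 9 class I presentation genes, HLA-E, TAP1 and TAP2. For HLA-E it was nearly level with NnK-1 replicate 3 (343.20 and 343.07 CPM). Against the mean of the other controls, the median log2 difference (CPM + 1) of that library was 0.11 for the 9 genes, 0.43 for the interferon-stimulated genes and -0.00026 for all tested genes. Over all tested genes the 25th to 75th percentiles were -0.16 to 0.16, and the 5th to 95th were -0.56 to 0.52. The median of the 9 genes thus lay within the middle range of all genes. In plain CPM, NLRC5 and TAP2 were each 0.45 higher on the log2 scale, TAP1 0.25, HLA-E 0.17, HLA-F 0.12 and HLA-B 0.11. TAPBP was at -0.04, HLA-C at -0.06 and B2M at -0.15.

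**Figure D4:**
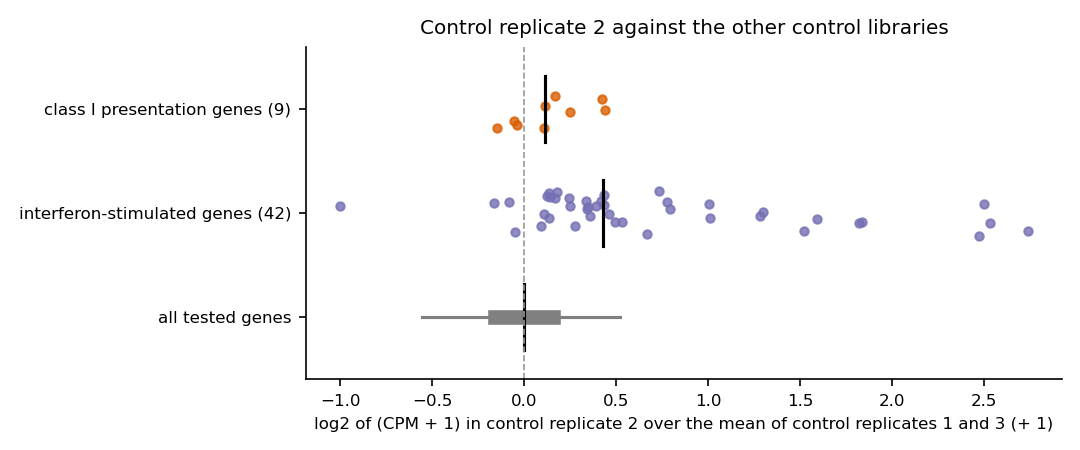
Log2 difference of CPM + 1 between control replicate 2 and the mean of control replicates 1 and 3 for the 9 class I presentation genes, 42 interferon-stimulated genes (points, vertical shift only for display) and all tested genes (thick bar, 25th to 75th percentile; thin bar, 5th to 95th). Black marks are medians, at 0.11 for the class I genes and 0.43 for the interferon-stimulated genes.

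Leaving that library out moved the fold changes of 6 of the 9 genes upward and those of HLA-C, B2M and TAPBP downward, by 0.16 at most on the log2 scale. These directions follow from where that library lay against the other controls. With CBRV1-10493 against the other controls, NLRC5 was then at 0.26, TAP1 at 0.11, TAP2 at 0.09, HLA-E at 0.08 and B2M at -0.10, and the median of the 9 genes was 0.08. With NnK-1 it was 0.30 for NLRC5, 0.29 for TAP2, 0.13 for HLA-E, 0.08 for TAP1 and -0.23 for B2M, and the median was 0.13. The sign thereby turned for TAP2 with CBRV1-10493 (-0.07 with all libraries) and for TAP1 with NnK-1 (-0.0033 with all libraries). The interferon-stimulated genes moved more: their median was 0.04 with CBRV1-10493 and -0.08 with NnK-1 without that library, and -0.14 and -0.24 with it. Of the interferon-stimulated genes 0 of 42 passed with all libraries. Still no class I gene passed without control replicate 2, and the smallest adjusted p among them was 0.834, for TAP2 with NnK-1.

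Without control replicate 2, the NnK-1 libraries did not overlap the remaining controls for 3 of the 9 genes, HLA-C, TAP2 and NLRC5, all higher, beside 21.7% of all tested genes. For CBRV1-10493 it was 0 of 9, beside 17.3%. With TAP2 the NnK-1 libraries spanned 98.9 to 119.8 CPM, against 88.5 and 94.6 CPM in control replicates 1 and 3. For NLRC5 they spanned 14.7 to 18.9 CPM, against 13.3 and 13.8 CPM. The control library left out had 124.8 CPM for TAP2 and 18.5 CPM for NLRC5.

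**Figure D5:**
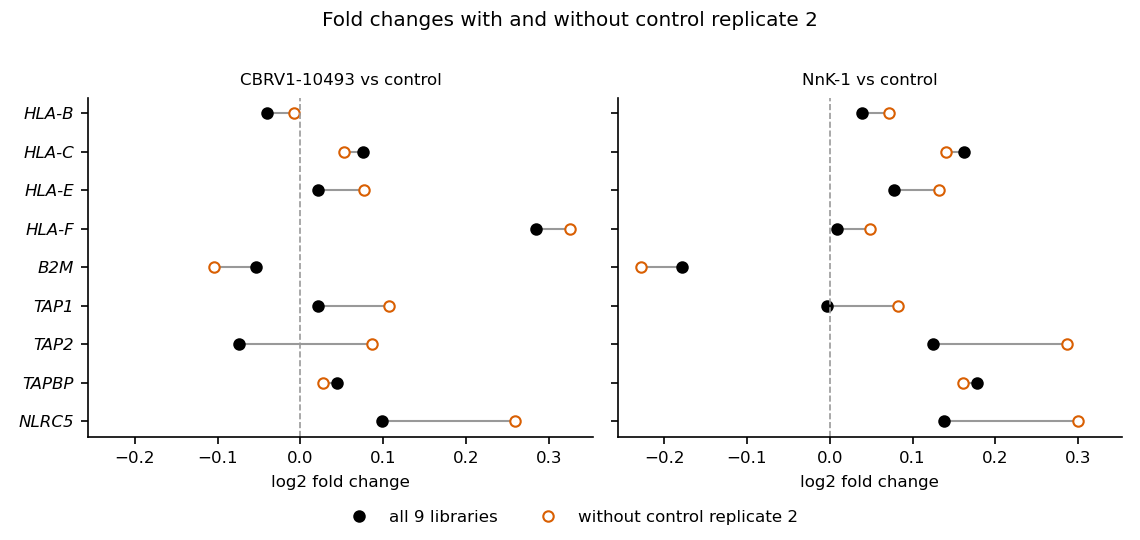
Log2 fold changes against control with all 9 libraries (black) and without control replicate 2 (open orange), for CBRV1-10493 (left) and NnK-1 (right). TAP2 and NLRC5 move most, to 0.29 and 0.30 with NnK-1, and B2M moves the other way to -0.23.

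Around the 9 genes, the rest of the pathway was measured in lists. Both peptides were set against the same control libraries, so their counts of direction are not independent. Of all 13676 tested genes 6733 lay below 0 with CBRV1-10493 and 6750 with NnK-1. Of 12 genes of peptide loading and trimming, none passed; with CBRV1-10493 7 lay below 0 against control, with a median of -0.04, and with NnK-1 11 lay below 0, with a median of -0.22. PDIA3 (ERp57), the thiol isomerase of the loading complex, had 112.6, 134.6 and 154 CPM with CBRV1-10493, 106, 104.8 and 119 CPM with NnK-1, and 178, 149 and 112.7 CPM in controls. The NnK-1 libraries overlapped the controls in control replicate 3, and the log2 fold change with NnK-1 was -0.38 (-0.67 to -0.09; adjusted p 0.601). SEC61A1, the channel of the endoplasmic reticulum, was at -0.25 and UGGT1, a folding sensor that also edits class I loading, at -0.27 with NnK-1.

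The interferon-induced proteasome subunits and activator, which shape the peptides for class I, gave 3 of 5 genes below 0 with CBRV1-10493 and 2 of 5 with NnK-1, and none passed. PSMB8 was at 0.04 with CBRV1-10493 and 0.09 with NnK-1, PSMB10 at -0.02 and 0.07, and PSME2, a subunit of the activator PA28, at -0.24 and -0.32. Of their constitutive counterparts PSMB5, PSMB6 and PSMB7, none passed, at 0.05, -0.13 and -0.10 with CBRV1-10493 and 0.21, -0.11 and -0.19 with NnK-1. All 6 tested cytosolic peptidases, which trim or destroy these peptides, also missed the threshold.

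Of 18 listed transcription factors of class I promoters, 16 were tested and 0 passed, with 7 below 0 with CBRV1-10493 and 8 below 0 with NnK-1. EZH2, the methyltransferase that can silence class I genes, had 88.2, 87.1 and 90.3 CPM with CBRV1-10493, 70.4, 65.5 and 78.0 CPM with NnK-1, and 89.9, 94.9 and 88.0 CPM in controls. All NnK-1 libraries lay below the others. EZH2 was named for its small p with NnK-1, and 13.0% of all tested genes had NnK-1 and control libraries that did not overlap, as 8.88% did between the peptides. The log2 fold change against control was -0.32 (-0.54 to -0.11) with an adjusted p of 0.578 by edgeR's quasi-likelihood test. NFKB1, a subunit of NF-kappa B, was at 0.37 and STAT2, a transcription factor of interferon signalling, at -0.32 with NnK-1. IRF1 was nearly level, at 67.7 ± 0.394 CPM with CBRV1-10493, 67.5 ± 13.4 CPM with NnK-1 and 68.1 ± 6.06 CPM in controls (SD, n = 3 each). It was named outside the rule for named genes.

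Interferon transcripts themselves were almost absent. Of 10 interferon genes 6 had no read, and IFNB1 had 4, IFNE 10, IFNK 2 and IFNW1 1 over all 9 libraries. Of 11 receptor, kinase and inhibitor genes, 10 had a fold change above 0 with each peptide against the shared controls, and none passed. Of all tested genes 6943 lay above 0 with CBRV1-10493 and 6926 with NnK-1. Between the peptides, CBRV1-10493 against NnK-1, 4 of the 11 lay above 0. IFNGR2, a chain of the interferon gamma receptor, was at 0.21 with CBRV1-10493 and 0.24 with NnK-1. In bulk RNA of this kind, fewer cells making a transcript and less transcript per cell cannot be told apart.

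The pattern of the 9 genes over the libraries was averaged as z-scores of log2(CPM + 1) to look for genes with a like pattern. The mean z was highest in control replicate 2 (0.553), CBRV1-10493 replicate 1 (0.436) and NnK-1 replicate 3 (0.380), and lowest in control replicates 3 (-0.457) and 1 (-0.425). It did not follow the groups. Among 10609 other genes at 5 CPM or more, the nearest by root mean square difference were PPP1R3C (0.573), ATP2B4 (0.576), ZNF37BP (0.587), GIT2 (0.589), AGPAT6 (0.599), OPTN (0.603), CTSF (0.604) and AGO2 (0.607). Of the 9 genes themselves TAP2 (0.590) and HLA-E (0.605) were nearest to their own mean and HLA-F (1.11) and B2M (1.23) farthest. Each of the 9 genes is part of that mean, so their distances cannot be set against those of the other genes.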

How the data were processed

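Per the labels' protocols, RNA was taken with TRIzol, 500 ng entered each QuantSeq library and single-end reads of 75 bp were sequenced on an Illumina NextSeq. Bowtie2, bedtools and hg19 are named in the submitters' processing notes, while versions, annotation and counting rules are not given in the sources used here. Values as deposited are raw, unnormalized counts for each gene symbol. Symbols on several of the 25737 entries were summed. Each class I presentation gene had all its reads on 1 entry. In GENCODE v29, 0 of 426 stretches of 75 bases in the last 500 bases of a chosen transcript of each gene were shared with another gene. Only exact matches of reference sequence were counted. How reads with mismatches or from the line's own HLA alleles were assigned was not tested.

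Counts were filtered (filterByExpr, minimum count 10, minimum total 15), scaled by TMM and fitted together for all 9 libraries by the quasi-likelihood method of edgeR 4.0.16 (R 4.3.3), two-sided, with Benjamini-Hochberg adjustment over 13676 genes at 0.05. CPM use library totals. The common biological coefficient of variation was 0.169. Member counts per library ranged from 154 to 22573. Alternatives were other scalings, filters, tests (DESeq2 1.42.0, limma-voom of limma 3.58.1), the replicate number as a block and each library left out. The members and lists were chosen with earlier results of these data known. All members were named; of each other list, up to 3 tested genes at 5 CPM or more with the smallest p for NnK-1 were named. The procedure was tested on simulated data with changes larger than those fitted for the 9 genes, so that test does not cover changes of their size. Replicates of a group differed by more than sampling noise.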

Additional observations from a re-analysis of the deposited data

How the results depend on the processing

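Across 20 alternatives none of the 27 fold changes of the 9 genes passed the threshold, and the lowest adjusted p was 0.161. Of the 27, 14 kept their sign throughout. Of all genes, 0 passed in each comparison as reported. Without a filter on low counts 74 passed for NnK-1, 6 for CBRV1-10493 and 1 between the peptides, and DESeq2 passed 3 for NnK-1. At an unadjusted p under 0.05 there were 1001, 395 and 589. Without that filter B2M with NnK-1 had an unadjusted p of 0.0449. None of the 9 genes was among those that passed after adjustment. With the replicate number as a block 0 genes passed in each comparison. Whether the numbers pair the libraries cannot be settled from 3 libraries a group. Deviations from the group mean correlated at -0.0566 to 0.132 for same-numbered libraries and at -0.0934 to 0.0975 for other numbers.

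The sign changed for the other 13. HLA-F with NnK-1 was -0.0082 with upper-quartile factors and -0.017 with library totals. TAP1 with NnK-1 was 0.00026 with DESeq2's size factors, 3.57e-05 without a filter, 0.0012 in a fit of 6 libraries, 0.00017 by DESeq2 and 0.0015 with the largest entry of a symbol. Leaving out NnK-1 replicate 2 and CBRV1-10493 replicate 1 together, an alternative chosen after seeing the data, gave -0.053 for HLA-C, -0.014 for HLA-E, -0.022 for TAPBP and -0.029 for NLRC5 with CBRV1-10493. Leaving out each library in turn gave, with NnK-1, -0.025 to 0.10 for HLA-B, -0.18 to 0.18 for HLA-F and -0.072 to 0.082 for TAP1. With CBRV1-10493 it gave -0.053 to 0.15 for HLA-C, -0.033 to 0.077 for HLA-E, -0.10 to 0.024 for B2M, -0.047 to 0.11 for TAP1, -0.20 to 0.087 for TAP2, -0.022 to 0.11 for TAPBP and -0.029 to 0.26 for NLRC5. Between the peptides it gave -0.044 to 0.093 for TAP1, -0.25 to 0.030 for TAPBP and -0.17 to 0.11 for NLRC5. The cause of these changes was not tested beyond the libraries left out. Of the 9 genes, counting error was largest for HLA-F and NLRC5, at 6.78% and 7.16% of the level.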

Other observations

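HLA-H, a class I pseudogene had 24.0, 35.5 and 36.9 CPM with CBRV1-10493, 25.7, 23.3 and 26.6 CPM with NnK-1, and 47.4, 37.0 and 36.8 CPM in controls. All NnK-1 libraries lay below all controls, and 13.0% of all tested genes had NnK-1 and control libraries that did not overlap. The log2 fold change with NnK-1 was -0.65 (95% interval -0.998 to -0.31) with an adjusted p of 0.499 by edgeR's quasi-likelihood test, and -0.71 without control replicate 2 (adjusted p 0.804). With CBRV1-10493 it was -0.32 (-0.66 to 0.03). HLA-H is close in sequence to the class I heavy chain genes. No source used here states how reads shared by such genes were counted, and its value is uncertain.

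Among 9 tested class I-like molecules and stress ligands none passed. MICA, a ligand of the natural killer receptor NKG2D, was at 0.05 with CBRV1-10493 and 0.28 with NnK-1 against control. FCGRT, the Fc receptor that also pairs with B2M, was at -0.06 and -0.29, and MR1, which presents vitamin B metabolites, at -0.44 and -0.45.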
